A study of Mus musculus with 24 samples.

Results

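The 41 genes described here act in homologous recombination, the Fanconi anaemia pathway and the DNA damage checkpoint. They were taken from a list of gene names, and all 41 were found among the 35519 genes to which the deposited mouse transcripts could be assigned. Every one passed the low-count filter, both among the 15427 genes tested in organoids and among the 16753 genes tested in tissue. Homologous recombination repairs a broken chromosome by copying the sister chromatid. The broken end is trimmed to a single strand, coated by RPA and then made to invade the intact copy, a step in which BRCA2 and BRCA1 take part. The Fanconi core complex marks FANCD2 and FANCI with ubiquitin where strands are crosslinked, and the kinases ATM, ATR, CHK1 and CHK2 halt the cell cycle while repair proceeds. Many of these genes are transcribed most in S and G2 phase, so their RNA also follows how many cells in a sample are dividing.

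RNA was sequenced from organoids grown out of the anterior prostate lobes of 3-month-old mice and from anterior prostate tissue. Organoids were labelled Brca1-/- (KO), Brca1+/- (HET) or wild type (WT), and each genotype was cultured without and with dihydrotestosterone (DHT), an androgen. This gave 6 organoid groups of 3 libraries and 3 tissue groups of 2, 24 libraries in all. The labels give neither the Brca1 allele, the deleted part, any Cre driver, the strain nor the age of the tissue donors. They number the replicates but do not say how many mice or cultures these came from, and the p-values below speak of the spread among these libraries, which may be technical.

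Library totals ran between 11965815 and 58445041 estimated reads. Summed TPM (a level scaled to transcript length and library size) of 5 luminal epithelial markers was 2210 to 3300 in organoids and 2970 to 4250 in tissue, and 5 leukocyte markers summed to at most 0.603 in organoids. Secretion markers of the anterior prostate, 3 in number, were nearly absent from organoids, at 0.0199 to 0.794 summed TPM, against 1090 to 34000 in tissue. A list of 9 stromal markers summed to 20 to 35.6 TPM in KO-labelled, 7.53 to 11.1 in HET-labelled and 19.5 to 27.9 in WT organoids, with 1 to 4 of the 9 at 0 in each library. Luminal markers with DHT summed to 2980 to 3060 TPM in KO-labelled, 2870 to 2980 in HET-labelled and 2210 to 2560 in WT organoids, and without DHT to 2900 to 3300, 2750 to 3290 and 2830 to 2870 in the same order. A list of 4 basal markers summed with DHT to 1480 to 1660 TPM in KO-labelled, 1140 to 1280 in HET-labelled and 1340 to 1920 in WT organoids, and without DHT to 1360 to 2430, 1070 to 1890 and 1670 to 2560. The part of these markers in the results was not tested. A trio of organoid libraries stood apart. WT plus DHT replicate 1 was the smallest and had 28% of its reads on Lars2, and KO and HET minus DHT replicate 1 had 9.97% and 9.4% mitochondrial reads. In tissue, HET replicate 1 and WT replicate 2 held 58000 and 165000 summed TPM of seminal vesicle markers, against 4.61 to 22.8 in the other 4. Results that move without these libraries are given with both values.

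Levels of Brca1 itself did not fall in the order of the genotype labels. Without DHT it was 13.1, 10.8 and 10.3 CPM (reads scaled to a common library size) in KO-labelled, 20.2, 18.5 and 17.2 CPM in HET-labelled and 13.2, 11.2 and 14.2 CPM in WT organoids. With DHT it was 11.8, 9.64 and 11.2 CPM in KO-labelled, 17.8, 14.7 and 18 CPM in HET-labelled and 13.6, 13.2 and 14.3 CPM in WT organoids. HET-labelled libraries were the highest in both media, and KO-labelled and WT libraries overlapped without DHT but not with it. The log2 difference of KO minus WT was -0.18 ± 0.13 without DHT and -0.34 ± 0.13 with DHT (SE of the edgeR fit, n = 3 each, edgeR quasi-likelihood test with Benjamini-Hochberg adjusted p = 0.596 and 0.22). HET minus WT was 0.53 ± 0.13 without DHT (edgeR adjusted p = 0.0147) and 0.30 ± 0.13 with it (edgeR adjusted p = 0.211). The gene sum counts reads on any part of the gene and so does not check a partial deletion, and the genotype words below are those of the labels.

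Promoter sequence is shown first for the genes the results turn on, those with the lowest p in HET-labelled against WT organoids without DHT and Chek2. RefSeq windows of 300 bases on GRCm38.p6, covering 250 bases before and 50 after the start, were at hand for 32 of the 41 members. Rad54b and Exo1 were not among them. The Chek2 window below is the stretch of 201 bases between the start of Chek2 and that of Hscb, a cochaperone gene transcribed the other way, at chr5:110839778-110839978 on the plus strand. For Rad51ap1 it is the 250 bases before the start, at chr6:126939588-126939837 on the minus strand, and both are written 5′ to 3′ in the direction of the named gene. Capitals mark the E2F core TTCCCGC, the E2F core TTGGCGC and the NF-Y core CCAAT on either strand, with no overlap between them.
Chek2: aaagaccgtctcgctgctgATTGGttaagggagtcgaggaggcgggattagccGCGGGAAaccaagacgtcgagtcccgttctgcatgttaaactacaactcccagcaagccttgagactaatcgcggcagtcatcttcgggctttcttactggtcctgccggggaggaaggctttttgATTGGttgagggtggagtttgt
Rad51ap1: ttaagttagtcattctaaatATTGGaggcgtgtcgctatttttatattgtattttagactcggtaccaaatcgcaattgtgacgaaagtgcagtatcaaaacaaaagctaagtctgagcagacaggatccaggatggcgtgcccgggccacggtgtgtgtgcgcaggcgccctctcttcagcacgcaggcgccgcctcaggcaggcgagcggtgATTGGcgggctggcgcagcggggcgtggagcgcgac
The stretch before Chek2 holds 1 E2F core and 2 NF-Y cores, and that before Rad51ap1 holds 2 NF-Y cores. The Rad51ap1 window also holds TTCCCGC, on the other strand, in the 50 bases after the start, which are not printed here. E2F factors drive S phase genes, and NF-Y binds CCAAT boxes, which are common before genes of the cell cycle.

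Across the members with a window, 14 of 32 (43.8%) held TTCCCGC or TTGGCGC on either strand, against 6.81% of all 32851 windows of the same length. CCAAT was found in 19 (59.4%), against 37.4% of all windows, and TTTGAA, the core of the cell cycle homology region, in 1 (3.12%), against 17.9% of all windows. Each member gave 1 window, whereas the 32851 hold every window at hand and were not matched for base composition. A match is a run of letters and not a shown binding site. Of the 9 members with a window that were called in HET-labelled organoids without DHT, 5 held an E2F core and 6 held CCAAT. Of the other 23, 9 held an E2F core and 13 held CCAAT.

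Chek2, which encodes the checkpoint kinase CHK2 that is activated by ATM, was the member that rose in KO-labelled organoids. Without DHT it stood at 37.4, 33.7 and 31.3 CPM in KO-labelled, 31.9, 29.3 and 25.5 CPM in HET-labelled and 18.9, 18 and 21.4 CPM in WT organoids. With DHT it stood at 35.8, 35 and 32.7 CPM in KO-labelled, 30.8, 26 and 27.6 CPM in HET-labelled and 19.2, 19.9 and 20.4 CPM in WT organoids. Every KO-labelled and HET-labelled library lay above every WT library of its medium. KO-labelled libraries also lay above HET-labelled ones with DHT, whereas these groups overlapped without it. In bulk RNA, more cells of a type and more RNA per cell cannot be told apart.

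Against WT, Chek2 was higher in KO-labelled organoids by 0.81 ± 0.11 on the log2 scale without DHT, a fold of 1.76 (SE, edgeR adjusted p = 0.000178). With DHT the log2 difference was 0.79 ± 0.11, a fold of 1.73 (edgeR adjusted p = 0.000239). In HET-labelled organoids it was 0.57 ± 0.11 without DHT and 0.50 ± 0.11 with DHT (edgeR adjusted p = 0.00259 and 0.00821). Both of these calls were lost when counts were offset by transcript length (edgeR adjusted p = 0.186 and 0.0662), and the one without DHT also when only the compared libraries were fitted (edgeR adjusted p = 0.0961). The KO-labelled calls held under all 8 alternatives, with log2 differences of 0.75 to 0.83 without DHT and 0.69 to 0.80 with DHT. KO minus HET was 0.24 ± 0.10 without DHT and 0.29 ± 0.10 with DHT and did not pass in either medium (edgeR adjusted p = 0.358 and 0.177). With the replicate number as a block in a fit of the compared libraries alone, the difference without DHT passed at 0.24 ± 0.05 (edgeR adjusted p = 0.0142). That fit was chosen after seeing the data and leaves 2 residual degrees of freedom. It called 18.6% of all genes, against 2.92% in the fit of all organoid libraries, and the labels do not say what the replicate numbers mark.

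**Figure D1:**
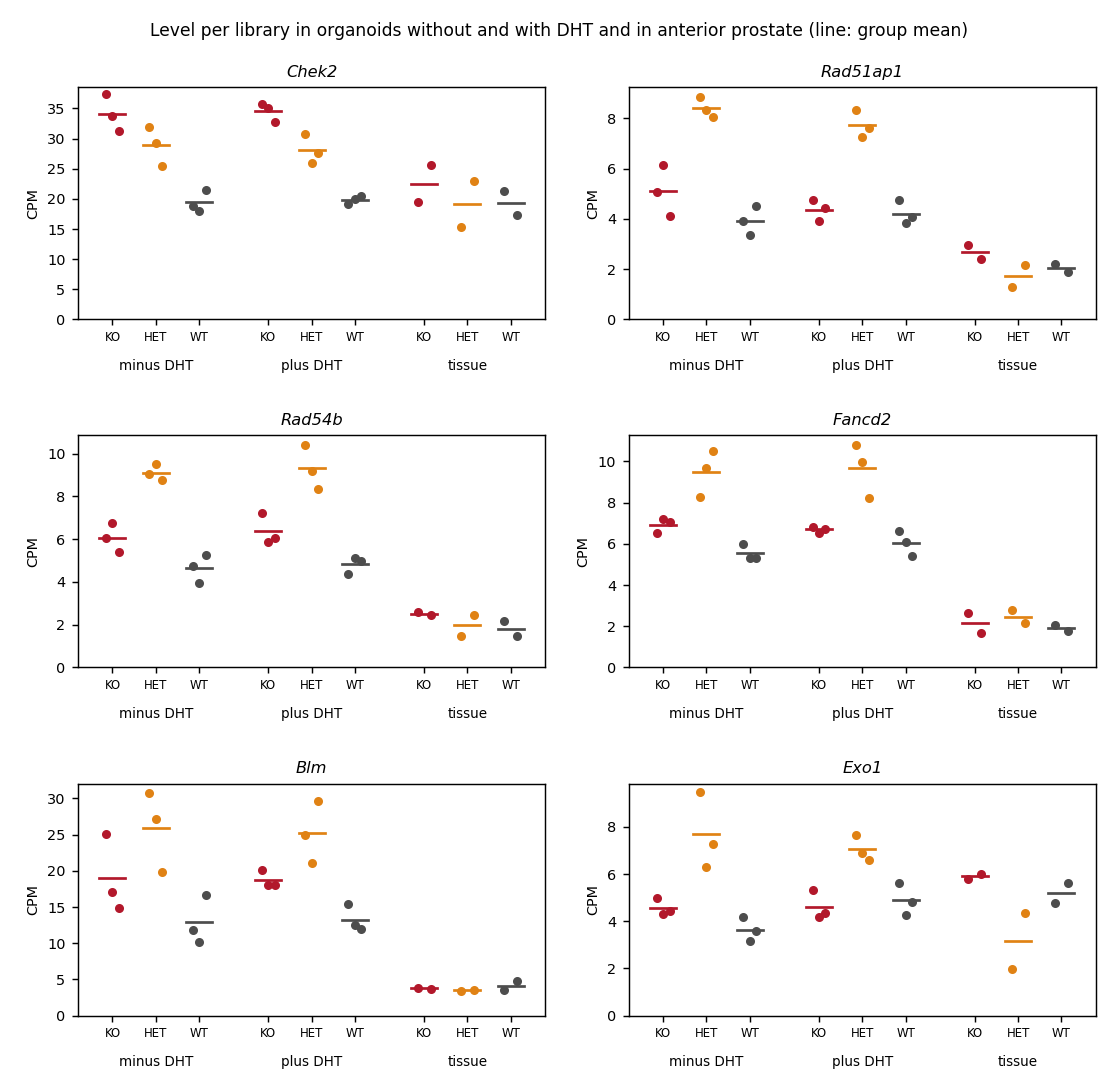
Each point is the level of one library in CPM, and each line is the group mean, for 6 members in KO, HET and WT organoids without DHT, the same with DHT, and KO, HET and WT anterior prostate tissue. Among organoids, Chek2 is lowest in WT of both media, at 18 to 21.4 CPM, while Rad51ap1, Rad54b and Fancd2 are highest in HET organoids. The tissue groups of Chek2 overlap, at 15.3 to 25.7 CPM.

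Reads of Chek2 fell mainly on its long coding transcript Chek2-201 of 2276 bases, which took 73.9% to 98.1% of the gene's estimated reads in the 18 organoid libraries. Chek2-204, a transcript of 2190 bases annotated for nonsense-mediated decay, took 0.651%, 2.61% and 3.2% in KO-labelled, 1%, 6.13% and 17.1% in HET-labelled and 9.94%, 22.4% and 7.29% in WT organoids without DHT. With DHT its share was 0.434%, 4.24% and 2.9% in KO-labelled, 5.63%, 6.39% and 0.744% in HET-labelled and 0%, 2.79% and 4.52% in WT organoids. The KO-labelled shares lay below the WT shares without DHT, and the groups overlapped with DHT. In tissue a transcript of only 341 bases, Chek2-202, took 2.46% to 35.6% of the reads, so the TPM of Chek2 there depends on how many reads were assigned to a short transcript.

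Hscb, whose start lies across the 201 bases shown, did not pass in KO-labelled against WT organoids, with log2 differences of -0.05 ± 0.11 without DHT and 0.06 ± 0.11 with DHT (edgeR adjusted p = 0.878 and 0.935). Of the 7 genes annotated within 100 kb of Chek2 (chr5:110839979-110874145, plus strand, GRCm38), 5 were tested. None of them was called in KO-labelled against WT organoids. Ttc28, which follows Chek2 on the same strand, differed by 0.41 ± 0.19 without DHT and 0.65 ± 0.20 with DHT (edgeR adjusted p = 0.344 and 0.0907). In HET-labelled organoids without DHT Ttc28 fell, with a log2 difference of -0.80 ± 0.20 (edgeR adjusted p = 0.018), opposite in sign to Chek2.

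Apart from Chek2, no member passed in KO-labelled against WT organoids in either medium. Thus 1 of 41 was called in each medium, against 4.8% of all genes tested without DHT (2.83% up, 1.98% down) and 4.11% with DHT (2.53% up, 1.58% down). At an unadjusted p under 0.05 there were 10 members without DHT and 5 with DHT, against 14.8% and 13.2% of all genes. The median log2 difference over the members was 0.18 without DHT and 0.07 with DHT, and 0.00 and -0.01 over all genes. After Chek2 the lowest p without DHT belonged to Rad51b, a strand exchange factor, at 0.60 ± 0.18 (edgeR adjusted p = 0.0755). With DESeq2, 2 members passed without DHT and 1 with DHT, where 1164 and 989 of the 15427 genes were called. With the 3 libraries that stood apart left out, 2 members passed without DHT. The share of all genes called in that fit is not given here.

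HET-labelled organoids showed a broader rise. Relative to WT, 12 of 41 members rose and 0 fell without DHT, where 7.81% of all genes tested were called, 4.52% up and 3.29% down. With DHT 8 rose and 0 fell, where 7.51% were called, 4.03% up and 3.47% down. In both media 7 were called: Chek2, Rad51ap1, Rad54b, Rad51b, Blm, Fancd2 and Fancb, 58.3% of those called without DHT and 87.5% of those called with it. These comparisons and those of KO-labelled organoids use the same WT libraries. Leaving out the 3 libraries that stood apart gave 14 without DHT and 9 with DHT. Leaving out WT replicate 2 gave 7 without DHT, and leaving out WT replicate 3 gave 5 with DHT. Fitting only the compared libraries left 3 without DHT, which were Rad51ap1, Rad54b and Fanci. Shares of all genes called in these alternative fits are not given here, so their counts are not read as a result about the members.

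**Figure D2:**
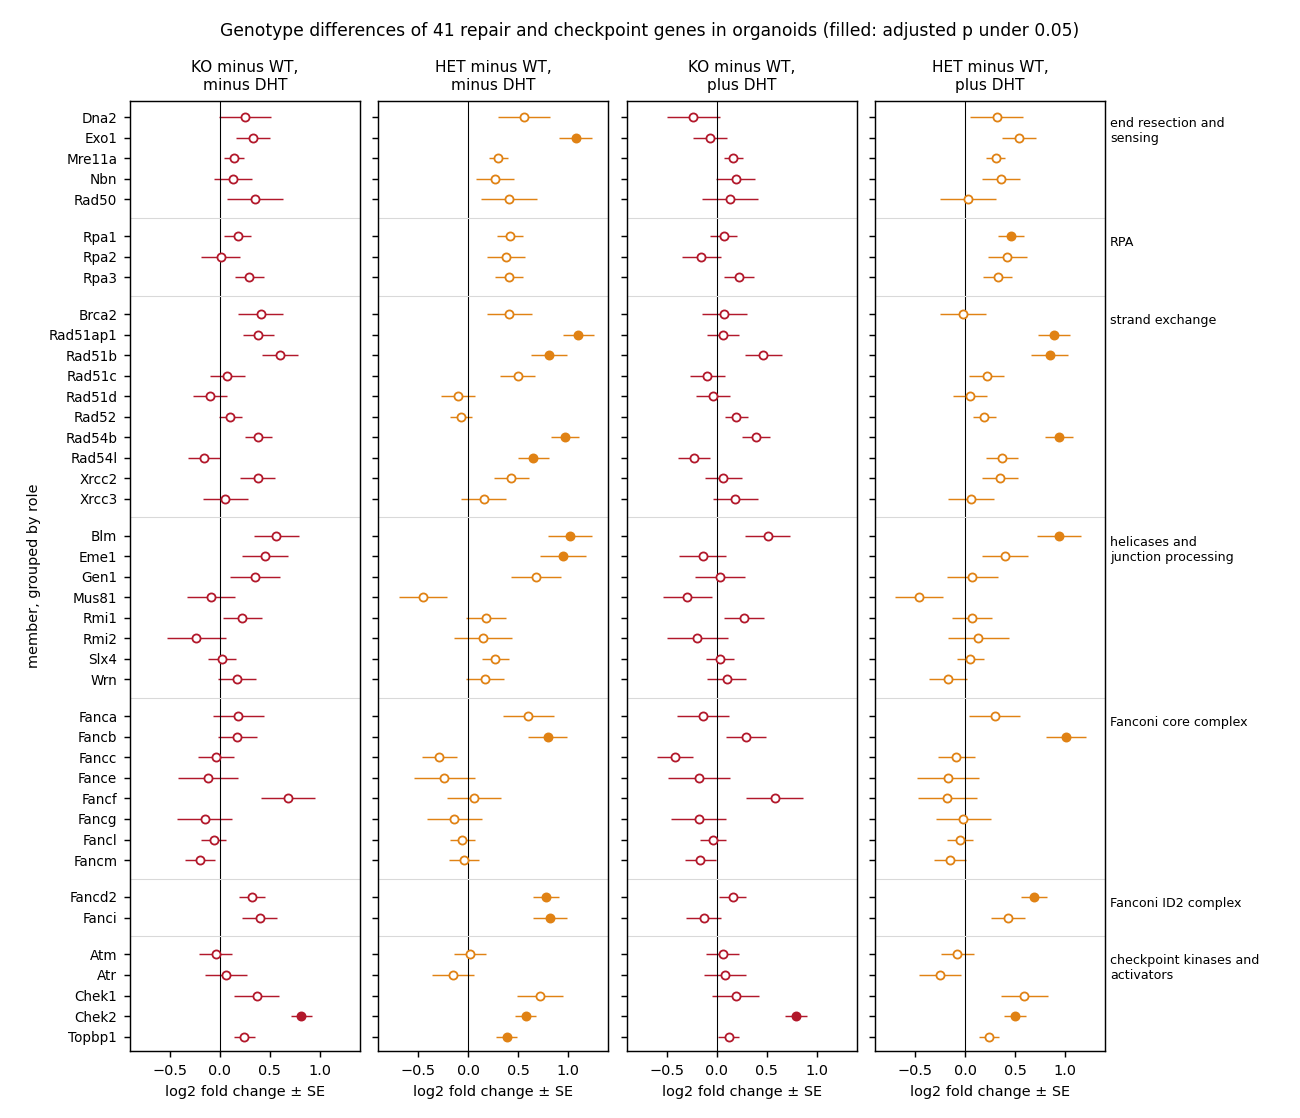
Log2 fold change (point) and its standard error (line) of the 41 members, grouped by role, for KO minus WT and HET minus WT organoids without DHT and the same with DHT; filled points have an adjusted p under 0.05 in the edgeR fit over 15427 genes. Chek2 is the filled point in both KO panels, while the HET panels have 12 filled points without DHT and 8 with DHT, all above 0.

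Among strand exchange genes, Rad51ap1, whose protein promotes strand pairing, had 8.85, 8.32 and 8.06 CPM in HET-labelled and 3.93, 3.34 and 4.49 CPM in WT organoids without DHT. With DHT it had 8.31, 7.25 and 7.61 CPM in HET-labelled and 4.73, 3.84 and 4.06 CPM in WT organoids. The HET-labelled libraries were all above the WT libraries. The log2 difference was 1.10 ± 0.16 without DHT and 0.89 ± 0.16 with DHT (edgeR adjusted p = 0.000281 and 0.00242). KO-labelled organoids had 5.08, 6.15 and 4.11 CPM without DHT and 4.74, 3.9 and 4.45 CPM with DHT, overlapping with WT in both media.

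Rad54b, a DNA translocase that acts in strand exchange, showed the same order. It had 9.03, 9.52 and 8.75 CPM in HET-labelled and 4.74, 3.94 and 5.25 CPM in WT organoids without DHT, and 10.4, 9.2 and 8.34 CPM in HET-labelled and 4.39, 5.1 and 4.96 CPM in WT organoids with DHT. The groups did not overlap, and the log2 difference was 0.97 ± 0.14 without DHT and 0.94 ± 0.14 with DHT (edgeR adjusted p = 0.000302 and 0.000582). KO-labelled organoids had 6.03, 6.76 and 5.39 CPM without DHT and 7.2, 5.85 and 6.04 CPM with DHT, all above the WT libraries of the same medium, though KO minus WT did not pass (0.38 ± 0.14 and 0.39 ± 0.14, edgeR adjusted p = 0.164 and 0.181). Rad54b overlaps Fsbp on the same strand, so reads on shared sequence could be split between both genes.

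Rad51b rose in HET-labelled organoids by 0.80 ± 0.18 without DHT and 0.85 ± 0.18 with DHT, and Rad54l, the other RAD54 translocase, by 0.65 ± 0.16 without DHT (edgeR adjusted p = 0.00968, 0.00957 and 0.0166). Rad51b was 0.60 and missed the threshold without HET replicate 1 of the medium without DHT (edgeR adjusted p = 0.0527), and with DHT without HET replicate 2 or WT replicate 3 (edgeR adjusted p = 0.0525 and 0.0642). Rad54l missed it without HET replicate 2, WT replicate 1 or WT replicate 2 (edgeR adjusted p = 0.0519 to 0.0644), and with DHT it was 0.37 ± 0.16 (edgeR adjusted p = 0.22). The remaining strand exchange members did not pass. Brca2, a mediator of strand invasion, was 0.41 ± 0.22 without DHT and -0.02 ± 0.23 with DHT, and the strand exchange factors Rad51c, Rad51d, Xrcc2 and Xrcc3 lay between -0.10 and 0.50. Rad52, an annealing factor, was -0.07 without DHT and 0.19 with DHT. In all, 4 of 10 strand exchange genes rose without DHT and 3 of 10 with DHT, against 4.52% and 4.03% of all genes.

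Among end resection and sensing genes, 1 of 5 rose in HET-labelled organoids without DHT and 0 of 5 with DHT, against 4.52% and 4.03% of all genes. Exo1, a nuclease that trims broken ends, had 9.47, 6.32 and 7.27 CPM in HET-labelled and 4.17, 3.18 and 3.58 CPM in WT organoids without DHT. The groups did not overlap, and the difference was 1.07 ± 0.17 (edgeR adjusted p = 0.000645). Offsetting the counts by transcript length took it to 0.26 (edgeR adjusted p = 0.646). The longest Exo1 transcript, of 7796 bases, took 84.4%, 76.1% and 80.9% of the gene's reads in HET-labelled and 46.1%, 69% and 68.1% in WT organoids without DHT, so per unit of length the level of Exo1 differed less than its reads. The MRN complex genes Mre11a, Rad50 and Nbn, which sense the broken end, lay between 0.27 and 0.41 without DHT and between 0.03 and 0.36 with DHT and did not pass.

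RPA, the protein complex that coats single strands, has 3 subunits. Rpa1 passed with DHT at 0.46 ± 0.13 (edgeR adjusted p = 0.0457), and the call was lost without each of the 6 compared libraries in turn (edgeR adjusted p = 0.0722 to 0.179). Rpa2 and Rpa3 did not pass in either medium, with log2 differences of 0.33 to 0.42.

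Of the helicase and junction genes, 2 of 8 rose in HET-labelled organoids without DHT and 1 of 8 with DHT, against 4.52% and 4.03% of all genes. Blm, the helicase mutated in Bloom syndrome, rose by 1.01 ± 0.22 without DHT and 0.94 ± 0.22 with DHT (edgeR adjusted p = 0.00839 and 0.0167). The call without DHT was lost without WT replicate 2 (edgeR adjusted p = 0.0519), and the call with DHT without HET replicate 3, WT replicate 2 or WT replicate 3 (edgeR adjusted p = 0.0662 to 0.0888). Length offsets ended both (edgeR adjusted p = 0.062 and 0.123). With DHT its HET-labelled libraries had 24.9, 21.1 and 29.6 CPM and its WT libraries 15.4, 12.5 and 11.9 CPM, with no overlap. Eme1, the partner subunit of the MUS81 nuclease, rose by 0.95 ± 0.23 without DHT (edgeR adjusted p = 0.0161), and this was lost without HET replicate 2, WT replicate 2 or WT replicate 3 (edgeR adjusted p = 0.0506 to 0.099). Mus81 itself was -0.45 ± 0.24 without DHT and -0.46 ± 0.24 with DHT (edgeR adjusted p = 0.336 and 0.332). Eme1 lies 6.83 Mb from Brca1 on chromosome 11, and Rad51c and Rad51d lie 14.1 and 18.6 Mb away. Only Eme1 of these 3 passed in any comparison of genotypes in organoids, and it did so in HET-labelled organoids without DHT.

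In the Fanconi core complex, 1 of 8 rose in HET-labelled organoids in each medium, against 4.52% of all genes without DHT and 4.03% with DHT. The median over the 8 was -0.05 without DHT and -0.07 with DHT. The gene that rose was Fancb, a core subunit encoded on the X chromosome. It had 3.99, 4.79 and 3.68 CPM in HET-labelled and 2.18, 2.14 and 2.86 CPM in WT organoids without DHT, and 4.61, 4.33 and 4.79 CPM in HET-labelled and 1.8, 2.59 and 2.28 CPM in WT organoids with DHT. The groups did not overlap, with log2 differences of 0.79 ± 0.19 and 1.01 ± 0.20 (edgeR adjusted p = 0.0169 and 0.00465). The call without DHT was lost without HET replicate 2, WT replicate 1 or WT replicate 2 (edgeR adjusted p = 0.0867 to 0.1). The other core genes, Fanca, Fancc, Fance, Fancf, Fancg, Fancl and Fancm, lay between -0.29 and 0.60 without DHT and between -0.18 and 0.30 with DHT, and none passed.

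Fancd2, the substrate of the core complex, had 8.27, 9.66 and 10.5 CPM in HET-labelled and 6.01, 5.32 and 5.33 CPM in WT organoids without DHT. With DHT it had 10.8, 9.95 and 8.24 CPM in HET-labelled and 6.64, 6.1 and 5.4 CPM in WT organoids. The groups did not overlap, and the log2 difference was 0.78 ± 0.13 without DHT and 0.69 ± 0.13 with DHT (edgeR adjusted p = 0.00105 and 0.00372). The call without DHT was lost when only the compared libraries were fitted (edgeR adjusted p = 0.0558). Its partner Fanci rose by 0.82 ± 0.17 without DHT (edgeR adjusted p = 0.00652) and was 0.43 ± 0.17 with DHT (edgeR adjusted p = 0.181). With length offsets the call of Fanci was lost (0.55, edgeR adjusted p = 0.126). Both overlap genes on the opposite strand, whose reads cannot be told apart without strand information.

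Among checkpoint genes other than Chek2, Topbp1, an activator of ATR, rose by 0.38 ± 0.10 in HET-labelled organoids without DHT (edgeR adjusted p = 0.0299). This was lost without HET replicate 1 or 2 or WT replicate 1 or 2 (edgeR adjusted p = 0.0868 to 0.159). Chek1, the kinase downstream of ATR, was 0.72 ± 0.23 without DHT and 0.59 ± 0.23 with DHT and did not pass (edgeR adjusted p = 0.0711 and 0.161). The upstream kinases Atm and Atr lay between -0.25 and 0.01 in these comparisons. In KO-labelled organoids Chek1, Atm, Atr and Topbp1 lay between -0.04 and 0.37, and none passed.

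KO-labelled organoids were compared with HET-labelled ones directly. Without DHT 4 of 41 members were lower and 0 higher, where 2.92% of all genes tested were called (1.35% up, 1.56% down). With DHT 3 were lower and 0 higher, where 3.54% were called (1.79% up, 1.75% down). Rad51ap1 differed by -0.72 ± 0.16 without DHT and -0.82 ± 0.16 with DHT, and Rad54b by -0.59 ± 0.14 and -0.55 ± 0.14 (edgeR adjusted p = 0.02, 0.00705, 0.032 and 0.0372). Rad54l differed by -0.81 ± 0.16 without DHT, Exo1 by -0.75 ± 0.17 without DHT and Fancd2 by -0.53 ± 0.13 with DHT (edgeR adjusted p = 0.0102, 0.024 and 0.0302). The calls of Rad54l without DHT and Rad51ap1 with DHT held without each compared library in turn (highest edgeR adjusted p = 0.0396 and 0.0466), but both were lost with length offsets (edgeR adjusted p = 0.249 and 0.144), and that of Rad54l also when only the compared libraries were fitted (edgeR adjusted p = 0.294). With length offsets Exo1 was -0.28 without DHT (edgeR adjusted p = 0.849). Both Rad54b calls were lost without any 1 of the 6 compared libraries (edgeR adjusted p = 0.0533 to 0.148 without DHT and 0.0538 to 0.175 with DHT). Fancd2 was lost without each except HET replicate 3 (edgeR adjusted p = 0.1 to 0.156). Without DHT, Rad51ap1 was lost without KO replicate 1 or 3 or HET replicate 1 or 2 (edgeR adjusted p = 0.0543 to 0.084), and Exo1 without KO replicate 2 or 3 or HET replicate 1 (edgeR adjusted p = 0.0806 to 0.108). Leaving out the 3 libraries that stood apart gave 1 member without DHT and 8 with DHT, with no share of all genes given here.

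In KO and HET libraries without DHT, those with the same replicate number deviated together from their group means, with correlations of 0.613, 0.231 and 0.691 across genes. With the replicate number as a block in a fit of these 6 libraries alone, which leaves 2 residual degrees of freedom, 11 of 41 members were lower and 1 was higher in KO-labelled organoids. Of all genes tested, 18.6% were called in that fit, 8.75% up and 9.89% down. The member higher was Chek2, and those lower were the 4 called above and Rpa1, Blm, Mre11a, Fanca, Fancd2, Fanci and Fancb. The same 6 libraries fitted without the block gave 0 members.

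Genes of the cell cycle moved in the same comparisons. In HET-labelled against WT organoids, 22 of 36 S phase genes and 33 of 36 G2/M genes rose without DHT, and 15 and 28 rose with DHT. Their median log2 differences were 0.59 and 0.93 without DHT and 0.38 and 0.70 with DHT, above the members' 0.41 and 0.24. In KO-labelled against WT organoids, 5 G2/M genes rose without DHT and 0 with DHT, no S phase gene rose and 1 fell in each medium. Their medians were 0.13 and 0.40 without DHT and -0.07 and 0.15 with DHT. KO minus HET called 15 S phase and 15 G2/M genes lower in each medium.

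**Figure D3:**
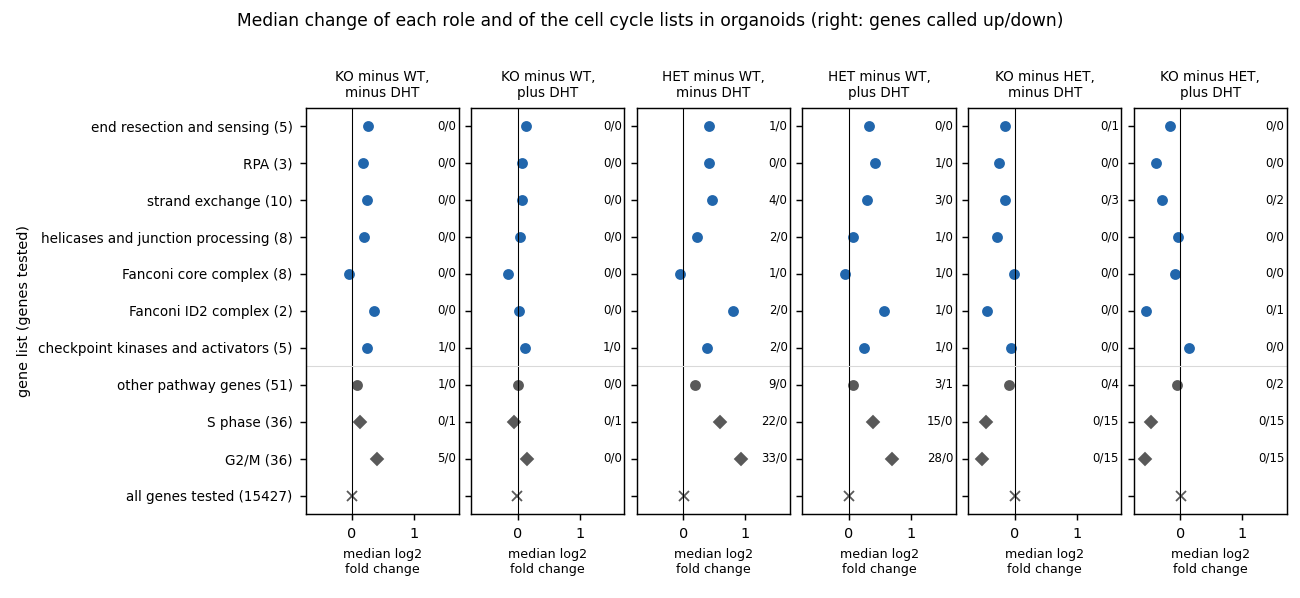
Median log2 fold change in organoids for the members by role (circles, upper rows), for other genes of the pathway, for S phase and G2/M genes (diamonds) and for all genes tested (cross), with the number of genes called up and down at the right of each row. In HET minus WT the cell cycle medians of 0.38 to 0.93 lie right of most roles, and the median of the Fanconi core complex is between -0.15 and -0.01 in the 6 panels.

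A list of 51 further pathway genes, which are not members, was read in the same fit. In HET-labelled against WT organoids 9 of the 51 rose without DHT, against 4.52% of all genes. With DHT 3 rose and 1 fell, near the 7.51% of all genes called (4.03% up, 3.47% down). Among those with the lowest p without DHT were the Fanconi ubiquitin conjugase Ube2t at 0.84 ± 0.13, the damage mediator Mdc1 at 0.70 ± 0.11 and the CHK1 adaptor Clspn at 0.89 ± 0.16 (edgeR adjusted p = 0.000543, 0.000724 and 0.00259). With DHT Ube2t and Spidr rose by 0.68 and 0.42, and Eme2, the other partner of MUS81, fell by 0.85 (edgeR adjusted p = 0.00378, 0.0148 and 0.0378). KO minus HET called 4 of the 51 without DHT, all lower, against 2.92% of all genes called (1.56% down). With DHT it called 2 of the 51, both lower, near the 3.54% of all genes called (1.75% down). Without DHT the genes called included Brca1, Palb2 and Ube2t, at -0.71, -0.57 and -0.51 (edgeR adjusted p = 0.00542, 0.0287 and 0.0456). With DHT Brca1 and Ube2t were called, at -0.63 and -0.58 (edgeR adjusted p = 0.0101 and 0.0187).

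To set the members beside proliferation, each organoid library was given a score, the mean log2 CPM over the 72 S phase and G2/M genes, centred over the 18 libraries. The mean score was -0.08 ± 0.06 in KO-labelled, 0.42 ± 0.01 in HET-labelled and -0.31 ± 0.09 in WT organoids without DHT (SD, n = 3 each). With DHT it was -0.17 ± 0.06 in KO-labelled, 0.35 ± 0.06 in HET-labelled and -0.21 ± 0.03 in WT organoids (SD, n = 3 each). HET-labelled libraries formed a group of their own, with no overlap with KO-labelled or WT libraries. The score differed by 0.04 between KO-labelled and WT organoids with DHT, and by 0.23 without DHT. With DHT its S phase and G2/M lists did not move alike. The centred S phase mean was -0.2861 to -0.1403 in KO-labelled and -0.1441 to -0.0846 in WT libraries. The G2/M mean was -0.1758 to -0.0816 in KO-labelled and -0.3561 to -0.2585 in WT libraries. The small difference in the score thus does not mean equal cell cycle RNA. The score spanned at most 0.167 within a group, so a slope on it is poorly determined. Of 15427 genes, 0 had a slope on this score that passed (edgeR, 14.7% at an unadjusted p under 0.05, among them 8 members). On a score from the G2/M list alone, slopes of some members did pass, so the 0 holds for the averaged score only. The share of all genes passing there is not given here. Over replicates 1, 2 and 3 of HET and KO organoids without DHT the lists ran against each other. The HET S phase mean was 0.2671, 0.3582 and 0.4167, and the G2/M mean 0.576, 0.4944 and 0.3803. In KO they were -0.1491, -0.1469 and -0.0733, and 0.1253, -0.0521 and -0.1729. The lists moved together in HET and KO with DHT and in WT without DHT. A score that averages them therefore gives little on slopes within groups.

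**Figure D4:**
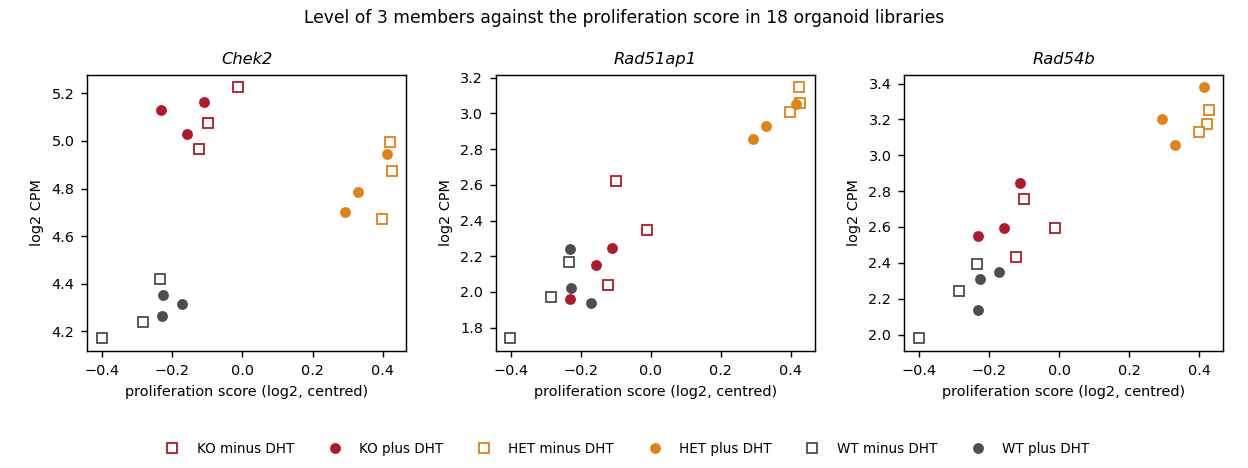
Log2 CPM of Chek2, Rad51ap1 and Rad54b (vertical) against the proliferation score (horizontal, log2 scale, centred) in the 18 organoid libraries; colour gives the genotype label, open squares are without DHT and filled circles with DHT. KO libraries have Chek2 at 31.3 to 37.4 CPM at scores below those of every HET library, while Rad51ap1 and Rad54b are high in the HET libraries with high scores.

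With the score in the model, 1 of 41 members differed between KO-labelled and WT organoids with DHT, against 4.32% of all genes tested. This was Chek2, at 0.74 ± 0.09 (edgeR adjusted p = 0.000186), against 0.79 without the score. The score differed by only 0.04 in this comparison, so adding it could move a difference little. The nearness of these values therefore does not separate Chek2 from proliferation. Without DHT, where the score differed by 0.23, Chek2 was 0.49 ± 0.15 and did not pass (edgeR adjusted p = 0.229). There 0 members passed, against 0.875% of all genes (2 members at an unadjusted p under 0.05, against 9.19%). A score from the S phase list alone or from the G2/M list alone did call members in this comparison. The outcome thus depended on the list used. Which members these were, and the share of all genes called, are not given here. Against HET-labelled organoids, Chek2 in KO-labelled organoids was 0.94 ± 0.28 without DHT and 1.02 ± 0.30 with DHT and did not pass (edgeR adjusted p = 0.337 and 0.256). KO minus HET called 0 members, against 0.0778% of all genes without DHT and 0.0907% with DHT, and had 5 and 9 at an unadjusted p under 0.05, against 14.8% and 19%. DESeq2 was not run on this model.

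For HET-labelled against WT organoids this model gave 0 members in either medium, against 0.0259% of all genes without DHT and 0.0972% with DHT (2 and 5 members at an unadjusted p under 0.05, against 11.2% and 16.6%). The median standard error of the members there was 0.81 without DHT and 0.63 with DHT. Rad51ap1 was -0.14 ± 0.66 and -0.07 ± 0.515, and Fancd2 was 0.58 ± 0.60 and 0.54 ± 0.47. Genotype and cell cycle RNA cannot be told apart for these members in these libraries. A score from the G2/M list alone called 12 members without DHT (7 up, 5 down) and 14 with DHT (7 up, 7 down), where one from the S phase list alone called 0 in both media. The outcome thus depended on the list used. The share of all genes called under these scores is not given here, so the counts are not read as a result about the members.

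A second reading, chosen after seeing the data, subtracted the score from every gene with a slope of 1, which asks whether a member moved more or less than the average cell cycle gene. Relative to cell cycle RNA, Chek2 was higher in KO-labelled than in WT organoids by 0.59 ± 0.09 without DHT and 0.75 ± 0.09 with DHT (edgeR adjusted p = 0.001 and 0.000132), the 1 member called in each medium. Over all genes 1.83% rose and 9.43% fell on this scale without DHT, and 2.18% rose and 1.74% fell with DHT. Against HET-labelled organoids Chek2 was higher by 0.73 ± 0.09 and 0.81 ± 0.09 (edgeR adjusted p = 7.75e-05 and 2.78e-05). It was among 14 and 16 members called, all of them up, where 46.2% and 48.5% of all genes rose and 0.648% and 0.72% fell. The score itself differed by -0.49 without DHT and -0.51 with DHT in KO minus HET, and subtracting it raised every gene by about that much. These values therefore do not show a rise of Chek2 over HET-labelled organoids, and the test takes the score as free of error. In HET-labelled against WT organoids Chek2 was -0.15 ± 0.09 and -0.06 ± 0.09 and did not pass (edgeR adjusted p = 0.178 and 0.628).

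On the same scale the members' median in HET-labelled against WT organoids was -0.31 without DHT and -0.32 with DHT. Without DHT 18 were lower and 1 higher, against 65.9% of all genes lower and 1.4% higher. With DHT 14 were lower and 1 higher, against 51.1% lower and 1.53% higher. The member higher without DHT was Rad51ap1, at 0.39, and with DHT Rad54b, at 0.39 (edgeR adjusted p = 0.0279 and 0.0185). Since the score sets this scale, genes that do not follow the cell cycle fall on it by construction.

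No member passed the test for removal of DHT in any genotype. The 0 of 41 called stood against 0.557% of all genes in KO-labelled, 0.707% in HET-labelled and 1.3% in WT organoids. DESeq2 also called 0 in each, and at an unadjusted p under 0.05 edgeR had 2 members in KO-labelled, 0 in HET-labelled and 2 in WT organoids, against 7.03%, 8.39% and 8.07% of all genes. Chek2 differed between the media by -0.01 ± 0.11 in KO-labelled, 0.04 ± 0.11 in HET-labelled and -0.04 ± 0.11 in WT organoids. The difference of each genotype effect between media was tested as well, and 0 of 41 members and 0% of all genes passed for KO minus WT, HET minus WT and KO minus HET (edgeR; 1 member each at an unadjusted p under 0.05, against 2.7%, 2.81% and 0.979% of all genes; DESeq2 also called 0 members). A member called in one medium and not in the other was therefore not shown to depend on DHT.

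In anterior prostate tissue no member passed between genotype labels. The edgeR test called 0 of 41 and 0% of all genes in KO minus WT, HET minus WT and KO minus HET, with 0 members at an unadjusted p under 0.05 (against 1.92%, 2.73% and 0.579% of all genes), and DESeq2 also called 0 members. Chek2 had 19.4 and 25.7 CPM in KO-labelled, 15.3 and 22.9 CPM in HET-labelled and 21.3 and 17.3 CPM in WT tissue. All 3 groups overlapped, and KO minus WT was 0.22 ± 0.35. The members' median standard error was 0.48 in KO minus WT, so a difference of the size seen in organoids was not detectable. Rad51b had 14.6 and 7.46 CPM in KO-labelled, 11.3 and 9.07 CPM in HET-labelled and 10.8 and 0.509 CPM in WT tissue. Its low value was that of WT replicate 2, the library with the most seminal vesicle RNA, whose part in the value was not tested. Leaving out HET replicate 1 and WT replicate 2 leaves 1 library in each of these groups. A count of members called from that fit could not check the part of seminal vesicle RNA and is not given.

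Levels between members were compared as TPM, summed over a gene's transcripts. In organoids the RPA subunits Rpa3 and Rpa1 led, with medians of 60.8 and 34.5 TPM over 18 libraries, followed by Chek2 at 22.6 TPM (range 15.1 to 34.5) and the sensor Mre11a at 20.8 TPM. The ranges of Rpa1, Chek2 and Mre11a overlapped, and Rpa3 alone, at 49 to 77.9 TPM, lay above every other member. The lowest medians were those of Rmi2, a subunit of the BLM complex, at 0.642 TPM, and of Xrcc3 at 0.881 TPM. Core Fanconi genes ran between Fance at 9.65 TPM and Fancf at 0.895 TPM.

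Levels in tissue and organoids are set side by side as a description, with no test. Rad54b had 0.665 to 1.61 TPM in tissue and 3.13 to 8.52 TPM in organoids, Blm 1.34 to 3.32 and 4.64 to 19 TPM, and Fancd2 0.366 to 0.849 and 1.55 to 3.69 TPM, with no overlap. Rad51ap1, Rpa3 and Mre11a were also lower in tissue with no overlap, at 1.22 to 3.29, 18.1 to 33.7 and 5.92 to 16.6 TPM. Their organoid ranges were 3.72 to 15.6, 49 to 77.9 and 16.8 to 31 TPM. Fanca ran the other way, at 7.37 to 14.4 TPM in tissue and 0.986 to 4.02 TPM in organoids, as did Slx4, at 5.42 to 11.5 and 2.65 to 5.27 TPM. The other members overlapped. No share over all genes is set beside these, and the part of seminal vesicle RNA in the tissue TPM was not tested. The tissue median of Chek2, 48.2 TPM, rests partly on the short transcript described above, and its CPM of 15.3 to 25.7 in tissue overlapped the organoid range of 18 to 37.4 CPM.

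**Figure D5:**
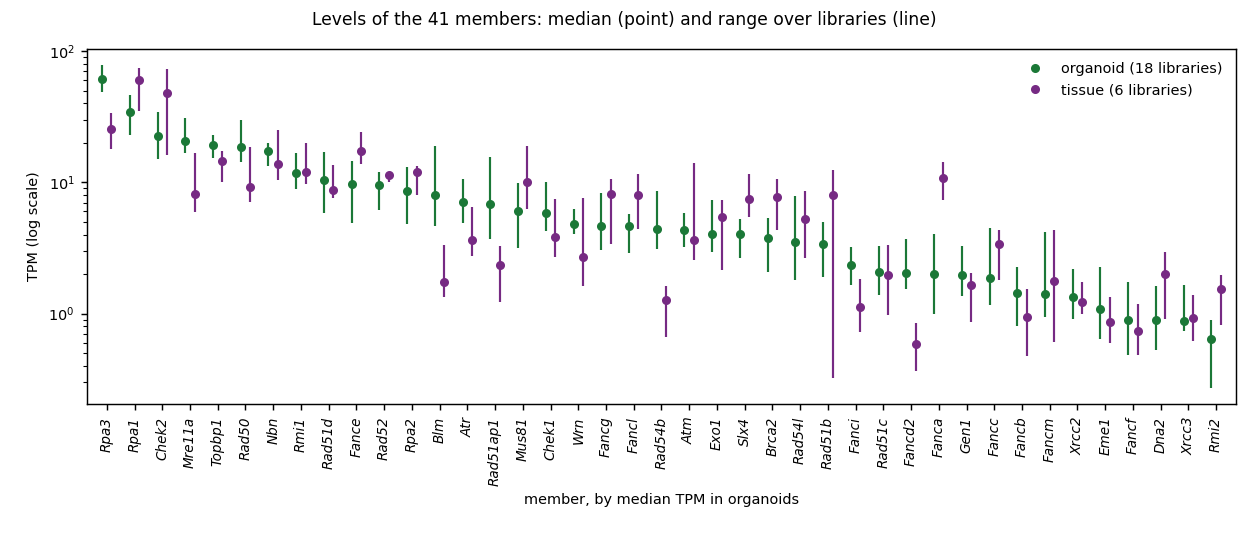
TPM on a log scale of each member, in the order of its organoid median, with the median as a point and the range over libraries as a line, for 18 organoid and 6 tissue libraries. Rad54b, Blm, Fancd2, Rad51ap1, Rpa3 and Mre11a lie lower in tissue than in organoids with no overlap, and Fanca and Slx4 lie higher in tissue.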

How the data were processed

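The authors deposited, per the file headers, Salmon tables of 116945 transcripts with estimated counts, TPM and effective lengths for each of the 24 libraries. Salmon 0.13.1 and the build hg38 are named in the submitters' processing notes, although the identifiers are mouse. The index annotation, trimming, strandedness and salmon settings are not given in the sources used here, and without strand, reads of overlapping antisense genes cannot be told apart (18 members overlap another annotated gene, 17 of them one on the other strand).

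From these, estimated counts were summed per gene with GENCODE mouse release 21 (922 transcripts without a gene, 0.227% to 0.327% of reads, were left out) and rounded. The filter was filterByExpr, and the test came from edgeR 4.0.16 under R 4.3.3 (TMM, quasi-likelihood F-test, Benjamini-Hochberg over all genes, threshold 0.05), with 1 mean per group. Organoids were fitted with 18 libraries and 12 residual degrees of freedom (biological coefficient of variation 0.214), tissue with 6 libraries and 3 (0.502). The standard error is the log2 change divided by the root of F. The proliferation score used a prior count of 2 and was added as a covariate. CPM are TMM-scaled; TPM were summed as deposited.

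Members and gene lists were chosen with earlier results of these data known. All members may be named. Values per library are given for Chek2, Brca1, members called with the score in the model, and the 4 called members with the lowest p in each comparison with WT in each medium; Blm and tissue Rad51b were added after their values were seen. From the list of 51 other pathway genes, up to 4 called per direction and comparison were named. A further gene that the rule would name is not reported here. The test was checked on simulated counts. Alternatives were DESeq2 1.42.0, its size factors, no filter, a filter of over 1 CPM, transcript length offsets, a replicate block, only the compared libraries, leaving out each library, and 1-list scores. Those added after seeing the data left out libraries that stood apart, used the score as an offset, or fitted only the compared libraries with the replicate number as a block. The last was used where all 3 same-numbered pairs correlated over 0.1 in their deviations, which held for KO minus HET without DHT (0.613, 0.231 and 0.691); the labels do not say what the numbers mark.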

Additional observations from a re-analysis of the deposited data

How the results depend on the processing

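Of 29 calls of a member in a genotype comparison, 9 held under every alternative run (8, or 9 for KO minus HET without DHT) and 15 held without each compared library in turn, and no direction reversed in any of them. The first include Chek2 in KO minus WT and Rad51ap1 and Rad54b in HET minus WT, in both media. The causes of the changes below were not tested. Counts of members called changed as follows. HET minus WT without DHT (12) gave 6 with transcript length offsets and 3 from the compared libraries alone, and with DHT (8) it gave 5 with length offsets. KO minus WT without DHT (1) gave 2 with DESeq2 and 2 without the 3 libraries that stood apart, and with DHT (1) it gave 2 from the compared libraries alone. KO minus HET without DHT (4) gave 0 with length offsets, 0 from the compared libraries alone and 1 without the 3 libraries. With DHT (3) it gave 7 with DESeq2, 1 without a filter, 5 with the filter of over 1 CPM, 8 from the compared libraries alone and 8 without the 3 libraries. DESeq2 called 1164 genes in KO minus WT without DHT and 988 in KO minus HET with DHT, where edgeR called 741 and 546. Shares of all genes are not given here for the other fits above, for each library left out, or for the replicate block over all organoid libraries. Those counts are not read as a result about the members.

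Leaving out each library gave 7 to 15 (HET minus WT), 1 to 1 (KO minus WT) and 1 to 3 (KO minus HET) members without DHT, and 5 to 7, 1 to 1 and 1 to 3 with DHT. In the model with the score, the G2/M list alone gave 12 for HET minus WT, 3 for KO minus WT and 15 for KO minus HET without DHT, 14 and 17 for HET minus WT and KO minus HET with DHT, and 18 slopes. The S phase list alone gave 1 for KO minus WT without DHT. Shares of all genes called under these 1-list scores are not given here, so the counts have no background beside them. The score as an offset gave 19, 1 and 14 without DHT in the order HET minus WT, KO minus WT, KO minus HET, and 15 and 16 with DHT for HET minus WT and KO minus HET.

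Deviations of same-numbered organoid libraries correlated between -0.517 and 0.691 (median 0.035, 45 pairs), and all 3 pairs of a comparison were over 0.1 for KO minus HET without DHT only, of the 9 comparisons of 2 organoid groups. There the replicate block in a fit of the compared libraries gave 12 members. Over all 18 libraries the replicate block gave 14 (HET minus WT), 1 (KO minus WT) and 4 (KO minus HET) members without DHT and 9, 1 and 5 with DHT. Rmi2, a low member, had 0.785 to 2.59 CPM in organoids, and the part of depth was not tested.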
